A study of Drosophila melanogaster with 12 samples.

Results

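Gonads of Drosophila melanogaster labelled as Tdrd5l mutant were compared between the sexes, testis against ovary, to describe how far sex-biased expression of the gonad holds in flies without normal Tdrd5l. The 6 mutant libraries of the 12 in the series were chosen by their labels, 3 from mutant testes and 3 from mutant ovaries. The 3 control testis and 3 control ovary libraries, from a line the labels call cas9 iso, served to say which genes differ between the sexes when Tdrd5l is intact. Mutant and control males were 1 to 2 days old and mutant and control females 0 to 1 day old at dissection, all were kept at 25 °C, and 200 ng of RNA entered each library. In both genotypes the testis libraries were prepared by ribosomal RNA depletion and the ovary libraries by poly(A) selection. Tissue, RNA selection and age therefore change together in every comparison below and cannot be told apart. The mutant lesion is not described in the labels, and each replicate is called a biological one there.

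Tdrd5l encodes a protein with Tudor domains, which bind methylated arginines, and is known in this species as a gene of the male germ line that favours male over female germ cell identity. In the testis, germ cells divide inside somatic cysts, become spermatocytes that switch on a large testis-specific programme through the tTAF and tMAC complexes, pass meiosis and build sperm. In the ovary, germ cells become nurse cells and an oocyte wrapped in somatic follicle cells, and load the egg with maternal RNA, yolk and later a shell.

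The mutant testis libraries held 2880119, 2742831 and 1641828 gene counts in replicate order, and those of mutant ovary 908980, 1647933 and 912974. Features of the annotation held 3.35% to 5.02% of the uniquely placed records of mutant testes and 1.95% to 3.29% of those of mutant ovaries. The kit does not mark strand, and the sources used here do not give the strand setting of the counting. A gene with an exon opposite that of another gene therefore has an uncertain value. Such genes are marked as having an opposite exon below. Genes without one are not free of this doubt, since how far counts of any gene follow its RNA was not measured. Replicates of a group differed by more than counting noise in all 12 pairs, with chi-square per degree of freedom from 5.14 to 58.3.

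Mutant ovary replicate 2 stood apart. Its levels correlated with those of mutant ovary replicates 1 and 3 at Spearman 0.597 and 0.559 across genes, against 0.912 between these 2. Genes without an opposite exon held 39.5%, 43.3% and 26.7% of the counts in mutant testes, against 5.74%, 30.2% and 6.05% in mutant ovaries, so replicate 2 lay inside the testis range. Antisense RNA features held 15.7% ± 3.66 of the counts in mutant testes and 46.0% ± 12.7 in mutant ovaries (SD, n = 3 each), with 31.3% in ovary replicate 2. These antisense shares did not overlap between the tissues (exact two-sided permutation p = 0.1, the smallest that 3 against 3 libraries allow). Cytoplasmic ribosomal protein genes summed to 6973, 6482 and 5824 CPM (scaled counts per 1000000) in mutant testes and to 6873, 53441 and 5891 CPM in mutant ovaries. Muscle genes summed to 209.7, 244 and 322 CPM in mutant testes and to 457, 2717 and 473 CPM in mutant ovaries. The part of these differences in the results was not tested, and the calls of each gene list below are given with and without this library where they differ by more than 1 gene in a direction.

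**Figure D1:**
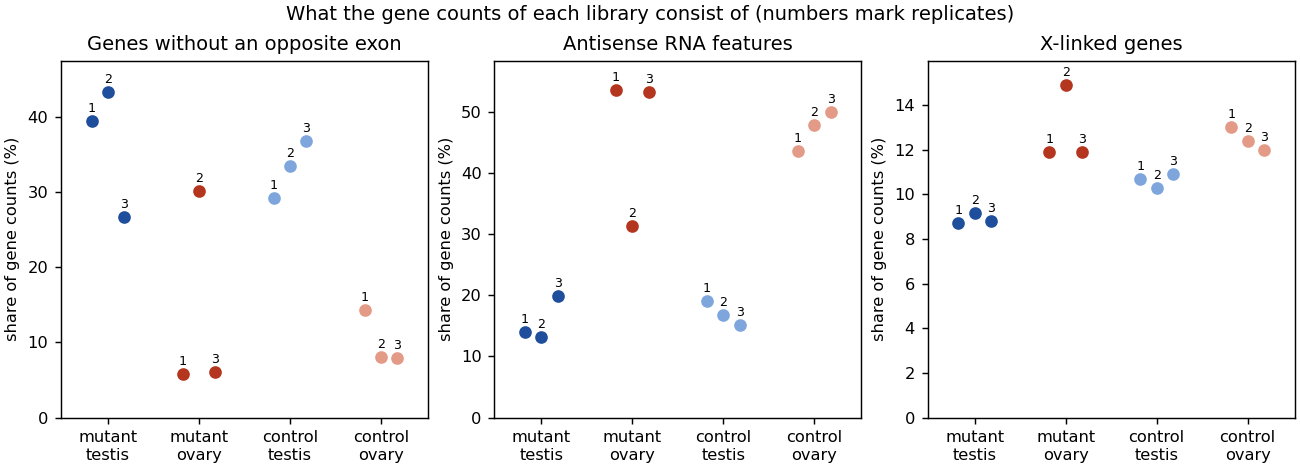
Share of each library's gene counts (%, y axes from 0) held by genes without an opposite exon, by antisense RNA features and by X-linked genes in mutant testis, mutant ovary, control testis and control ovary (points, 1 library each, replicate numbers above). Mutant ovary replicate 2 lies at 30.2% in genes without an opposite exon, where the other mutant ovary libraries lie at 5.74% and 6.05%.

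The labels were checked against marker genes. A set of 17 testis markers summed to 11920.3, 11402 and 6974 CPM in mutant testes and to 116, 54.0 and 95.7 CPM in mutant ovaries, and 9 of the 17 had no count in any mutant ovary library. The 15 ovary germline markers summed to 1578, 1943 and 1069.8 CPM in mutant testes and to 858, 1495 and 888 CPM in mutant ovaries. The summed level of this ovary set thus overlapped between the tissues, and only some of its defining genes, among them osk, grk and alphaTub67C, were higher in ovary. Of its 11 tested members 2 were called higher in testis and 4 higher in ovary, and 6 and 4 members were called without mutant ovary replicate 2.

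Tdrd5l itself kept its male bias in the mutants. Tdrd5l (FBgn0029754, listed as CG15930; X chromosome, 5315130 to 5317295, minus strand, BDGP6.54) stood at 319.9, 230.4 and 452 CPM in mutant testes and at 17.2, 3.43 and 15.5 CPM in mutant ovaries. The control values were 405, 302 and 281 CPM in testes and 8.5, 5.34 and 8.46 CPM in ovaries. The groups did not overlap in either genotype. The log2 fold change of testis over ovary was 4.84 (SE 0.78, edgeR adjusted p = 4.81e-05) in mutants and 5.4 (SE 0.36, edgeR adjusted p = 1.12e-09) in controls, and the difference between them was -0.54 (edgeR interaction adjusted p = 1.0). Without mutant ovary replicate 2 the mutant value was 4.31. A count over the whole gene does not test the genotype label, and CG4198 lies across 3.24% of the exon bases of Tdrd5l.

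Sex-biased expression was widespread in the mutant gonads. Of 9182 genes tested, 5282 (57.5%) differed between mutant testis and mutant ovary at an edgeR adjusted p under 0.05. The 3507 genes higher in testis were 38.2% of those tested and the 1775 higher in ovary 19.3%, and every call was at least 2-fold. The median log2 fold change over all tested genes was 0.83. No count was found in any mutant ovary library for 1240 tested genes and in any mutant testis library for 7. The fold change of such genes is given as a lower bound, with 3 counts put in place of the 0 of that group, and list medians are given with these genes at their bound. Among genes without an opposite exon, 2527 of 5264 (48.0%) were higher in testis and 516 (9.8%) in ovary. Groups did not overlap for 6051 genes (65.9%). Bulk RNA does not separate a lower number of cells of a type from less RNA per cell, so these calls compare whole gonads.

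The ovary replicate that stood apart decided much of the number of calls. Without mutant ovary replicate 2, 7345 of 9818 tested genes (74.8%) were called, 5172 higher in testis (52.7%) and 2173 in ovary (22.1%). Of the 5282 calls of all 6 libraries, 5128 were called in the same direction without it, and 2217 genes were called only without it. The median log2 fold change, with genes at 0 at their bound, was then 1.7. Upper quartile scaling, which moved the median of all genes by -0.68, gave 3109 mutant genes higher in testis and 2625 higher in ovary, so that 54.2% of calls were on the testis side against 66.4% with TMM scaling.

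The strongest differences on the testis side were genes with no count at all in mutant ovaries. All 10 genes with the largest change in this direction, chosen among called genes without an opposite exon and with at least 50 CPM in testis, had 0 counts in the 3 mutant ovary libraries. loopin-1, a leucyl aminopeptidase of sperm mitochondria (chromosome 2R, 16534943 to 16537086, plus strand), had 4145, 4585 and 2441 CPM in mutant testes and 0 in every mutant ovary. It was at least 4977-fold higher in testis (edgeR adjusted p = 5.52e-07), and at least 2369-fold higher in control testes than in control ovaries. CG12861 was at least 5057-fold higher in mutant testis. CG3124 and CG32436 were at least 2364-fold and at least 1869.9-fold higher. The bounds of CG1394, CG4691, CG31538 and nis were 1225, 1134, 1065 and 1075. Adgf-E, of the adenosine deaminase growth factor family, had 834, 668 and 1192 CPM in mutant testes and 0 in mutant ovaries. tadr, an amino acid transporter, had 948, 664 and 1326 CPM in mutant testes and 0 in mutant ovaries. Each of the 10 genes was called in all 17 alternatives run for it.

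The meiotic arrest genes that open the spermatocyte programme were measured at low levels and on the testis side. Of 5 tTAF genes, testis versions of general transcription factor subunits, 4 were tested and 3 were higher in testis (4 without mutant ovary replicate 2), with a list median of 4.41 against 0.83 over all genes, since 3 members had no ovary count. can, the testis TAF5, had 20.8, 23.1 and 9.32 CPM in mutant testes and 0 in all mutant ovaries, at least 24.3-fold higher (edgeR adjusted p = 0.00024). nht, the testis TAF4, had 22.5, 17.5 and 15.3 CPM in mutant testes and 0 in mutant ovaries. Taf12L had 17.7, 16.5 and 7.99 CPM in mutant testes and 0 in mutant ovaries. sa, the testis TAF8, did not pass the test (log2 1.47, edgeR adjusted p = 0.0949).

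The tMAC complex works in the same step. Of its 9 listed genes and partners, 7 were tested and 5 were higher in testis, with a median of 4.06, and 7 were higher in testis without mutant ovary replicate 2. topi, a zinc finger subunit, had 19.8, 26.2 and 19.97 CPM in mutant testes and 0 in mutant ovaries, at least 28.0-fold higher (edgeR adjusted p = 0.000133). aly, the regulatory subunit that also gates meiotic entry, had 18.1, 11.8 and 7.32 CPM in mutant testes and 0 in mutant ovaries. vis, a homeodomain subunit, had 44.3, 24.3 and 29.96 CPM in mutant testes and 0, 1.72 and 1.41 CPM in mutant ovaries (log2 4.64). kmg, which keeps genes of other cell types off in spermatocytes, had 17.4, 21.2 and 24.6 CPM in mutant testes and 0, 0.858 and 1.41 CPM in mutant ovaries, with a testis to ovary ratio of 25.4 (counting interval at 95%, 8.54 to 125; edgeR adjusted p = 0.000555).

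Genes of the male meiotic divisions were less clear with all libraries in. Of 7 listed, 6 were tested and 2 were higher in testis, against 5 of the 7 tested in controls and 5 in mutants without ovary replicate 2. The testis share over all genes was 38.2% in mutants, 49.3% in controls and 52.7% in mutants without that replicate. bol, the Boule RNA-binding protein that drives meiotic entry (chromosome 3L, 9097629 to 9134405, minus strand), had 424, 469 and 313 CPM in mutant testes. It had 1.44, 15.4 and 2.82 CPM in mutant ovaries, where replicate 2 was highest, and the groups did not overlap (log2 5.69, SE 0.84, edgeR adjusted p = 2.34e-05). eIF4E3, a cap-binding protein needed in spermatocytes, had 242, 203 and 116 CPM in mutant testes and 0, 0.429 and 0 CPM in mutant ovaries, where it had 1 count in all. twe, the meiotic Cdc25 phosphatase, did not pass the test (log2 0.55, edgeR adjusted p = 0.469).

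Genes for building sperm were almost all higher in testis. Of 24 sperm tail and spermatid genes, 23 were tested and 22 were higher in testis, with a median log2 fold change of 7.21 and a range of 1.31 to 12.2, and 14 had no ovary count. Leaving out mutant ovary replicate 2 gave 23 calls, all higher in testis. betaTub85D, the testis beta-tubulin of meiotic spindle and axoneme (chromosome 3R, 9408383 to 9410282, minus strand), had 4015, 3431 and 2387 CPM in mutant testes and 0, 0 and 4.22 CPM in mutant ovaries. The ratio was 4298 (95% counting interval 1471 to 20844 for 3 ovary counts; edgeR adjusted p = 1.56e-06). Mst84Dd, a sperm tail protein gene, had 1788, 1641 and 1189 CPM in mutant testes and 0, 0.429 and 0 CPM in mutant ovaries. Mst87F, of the same family and with an opposite exon, was at least 3594-fold higher in mutant testis. TTLL3B, a tubulin glycylase, was at least 838-fold higher.

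All 6 tested sperm chromatin genes of 7 were higher in testis, with a median of 8.31. Mst77F, a linker protein of condensed sperm chromatin, had 908, 786 and 546 CPM in mutant testes and 0, 1.29 and 2.82 CPM in mutant ovaries (log2 9.01, SE 0.92, edgeR adjusted p = 1.32e-06). ProtB, a protamine-like protein, had 234, 243 and 64.6 CPM in mutant testes and 0 in mutant ovaries, with testis replicate 3 lowest. Tpl94D, a transition protein of the histone to protamine exchange, was at least 396-fold higher, and Prtl99C, a protamine-like protein with an opposite exon, at least 1652-fold higher.

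The cup and comet genes, transcribed after meiosis in elongating spermatids, were on the same side. All 14 tested of 15 were higher in testis, with a median of 6.87. schuy and d-cup, both with an opposite exon, were at least 357-fold and at least 199-fold higher, and boly and soti at least 252-fold and at least 271-fold higher. All 8 sperm leucyl aminopeptidases, metabolic enzymes abundant in sperm mitochondria, were higher in testis with a median of 11.13. S-Lap1 had 7817, 6645 and 3775 CPM in mutant testes and 0, 0.858 and 2.82 CPM in mutant ovaries. S-Lap7 and S-Lap8 had 1 ovary count each, with ratios of 6671 (95% counting interval 1197 to 263492) and 9941 (1784 to 392668).

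Y-linked genes, present only in males, were counted only in testis. The listed fertility genes of the Y chromosome summed to 136, 171 and 85.9 CPM in mutant testes and to 0 in every mutant ovary. Of the 12 listed, 3 passed the filter on low counts, through testis alone. All 3 were higher in testis, a direction fixed in advance, with a median of 5.2. Leaving out mutant ovary replicate 2, which held no count of these genes, gave 7 calls. The added calls were of genes that did not pass the filter with that library in. kl-5, an axonemal dynein heavy chain (22250 to 137486, minus strand), had 42.3, 54.3 and 15.3 CPM in mutant testes and 0 in mutant ovaries, at least 52.3-fold higher (edgeR adjusted p = 6.62e-05). kl-2, a second dynein heavy chain gene, had 28.3, 30.6 and 29.96 CPM in mutant testes, at least 36.8-fold higher. FDY had 6.14, 9.36 and 11.98 CPM in mutant testes and was at least 10.8-fold higher.

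The testis also expresses its own copies of proteasome and mitochondrial subunits. All 12 tested of 14 testis proteasome paralogs were higher in mutant testis, with a median of 6.4. Without mutant ovary replicate 2 all 14 passed the filter and were called higher in testis. Of 30 tested general subunits 7 were higher in testis and 1 in ovary, where all genes had 38.2% and 19.3%. The median of the general subunits was 1.31. Prosalpha6T, a testis 20S subunit, had 205, 167 and 128 CPM in mutant testes and 0 in mutant ovaries, at least 216.7-fold higher. Rpt6R and Prosbeta5R2 were at least 161-fold and at least 129-fold higher, and Prosbeta4R2, with 1 ovary count, had a ratio of 433 (95% counting interval 77.5 to 17118). Among general subunits Rpn6, of the 19S lid, had 395, 376 and 172 CPM in mutant testes and 8.62, 60.0 and 11.3 CPM in mutant ovaries (log2 3.46, edgeR adjusted p = 0.00122). Rpn10, Prosbeta1 and Rpn9 had log2 fold changes of 2.72, 2.48 and 2.65, with an opposite exon in Prosbeta1 and Rpn9. Rpn10 and Prosbeta1 were not called when scaled by library size alone (edgeR adjusted p = 0.0875 and 0.0937). Without mutant ovary replicate 2 the general subunits counted 22 higher in testis and 1 in ovary, and in controls 20 and 1 of 29.

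Of 19 tested testis paralogs of respiratory chain subunits 15 were higher in mutant testis and none in ovary, with a median of 5.66. The calls were 17 in testis and 2 in ovary without mutant ovary replicate 2, and in controls 15 and 3. SdhAL, a paralog of the flavoprotein of complex II, had 164, 146 and 68.6 CPM in mutant testes and 0 in mutant ovaries, at least 172-fold higher. SdhBL had 186, 395 and 294 CPM in mutant testes and 0, 1.72 and 4.22 CPM in mutant ovaries (log2 7.17). COX7AL, with 3 ovary counts, had a ratio of 197 (95% counting interval 67.1 to 955) and ND-49L, with 2, a ratio of 214 (58.9 to 1766). Upper quartile scaling called 2 members of this list higher in ovary.

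**Figure D2:**
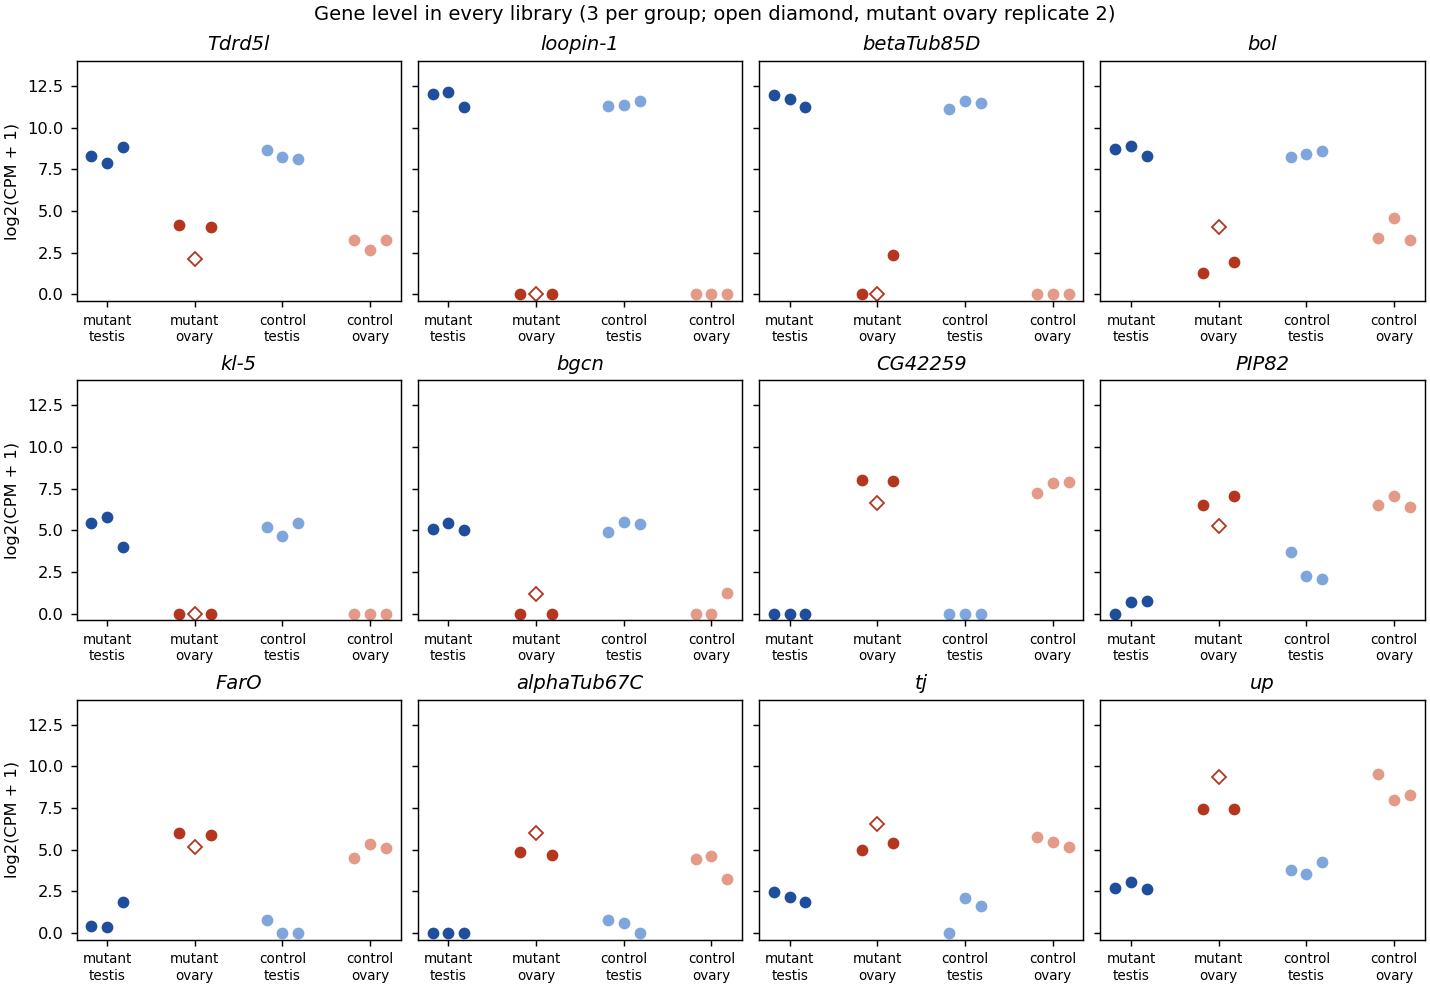
Level of 12 named genes in every library as log2(CPM + 1) (points, 1 library each; open diamond, mutant ovary replicate 2), for mutant testis, mutant ovary, control testis and control ovary. All 12 genes separate the tissues in both genotypes, and replicate 2 lies above the other mutant ovary libraries for bol, bgcn, alphaTub67C, tj and up.

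Germ cell identity genes were called on both sides. Of 8 tested of 11 genes of male germline identity and spermatogonia, 3 were higher in testis, among them Tdrd5l, and 1 was higher in ovary, with a median of 1.29. These shares lay near the 38.2% and 19.3% of all genes, and without mutant ovary replicate 2 the calls were 5 and 0. bgcn, the partner of Bam that ends spermatogonial divisions, had 32.7, 41.8 and 31.95 CPM in mutant testes and 0, 1.29 and 0 CPM in mutant ovaries, with a testis to ovary ratio of 45.3 (counting interval at 95%, 15.4 to 221; edgeR adjusted p = 0.000125). chinmo, a transcriptional regulator of male identity in somatic stem cells, had 39.9, 72.7 and 46.6 CPM in mutant testes and 2.87, 2.57 and 1.41 CPM in mutant ovaries (log2 4.44, edgeR adjusted p = 0.000116). how, an RNA-binding protein of stem and spermatogonial cells, had 3.41, 6.86 and 1.33 CPM in mutant testes and 5.75, 70.8 and 18.3 CPM in mutant ovaries. Those groups overlapped, and the change of -3.03 (edgeR adjusted p = 0.00867) lost its call without ovary replicate 2 (log2 -1.58, edgeR adjusted p = 0.0713). The how call was also lost without testis replicate 3 and with library size alone (edgeR adjusted p = 0.125 and 0.0698). Phf7, a chromatin reader of the male germ line, did not pass the test (log2 1.74, edgeR adjusted p = 0.0916).

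Of 10 tested sex determination genes 1 was higher in testis, 2 in ovary and 7 were not called. Over all genes 38.2% were higher in testis and 19.3% in ovary, so the ovary share lay near that of all genes. None of the 5 tested members without an opposite exon was called. The calls were 3 in testis and 4 in ovary without mutant ovary replicate 2, and in controls 1 and 4 of 10. ovo, the transcription factor of the female germ line (X chromosome, 5048273 to 5070929, plus strand, opposite exon), had 2.05, 0.936 and 3.99 CPM in mutant testes and 121, 162 and 101 CPM in mutant ovaries. Its log2 fold change was -5.88 (SE 0.77, edgeR adjusted p = 6.87e-06) in mutants and -5.53 in controls. dsx, the splice-regulated sex determination factor of the soma, with an opposite exon, had 31.4, 17.2 and 38.6 CPM in mutant testes and 199.8, 93.1 and 282 CPM in mutant ovaries (log2 -2.75, edgeR adjusted p = 0.00177). tra2, the splicing partner of Tra, with an opposite exon, was higher in testis (log2 1.91, edgeR adjusted p = 0.0168) and lost that call under upper quartile scaling and without mutant ovary replicate 1 or mutant testis replicate 1 or 2 (edgeR adjusted p from 0.0524 to 0.134). Sxl, the switch gene of female identity, was below the filter, with 5.46, 5.92 and 4.66 CPM in mutant testes and 7.19, 109 and 5.63 CPM in mutant ovaries, where replicate 2 alone was high. Gene counts do not separate the sex-specific splice forms of these genes.

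Of 7 tested dosage compensation genes, which raise X-linked expression in male somatic cells, none was higher in testis and 3 were higher in ovary. The shares over all genes were 38.2% and 19.3%. The long noncoding RNA roX1, with an opposite exon, had 8.53, 20.9 and 7.32 CPM in mutant testes and 109, 42.9 and 173 CPM in mutant ovaries (log2 -3.13, edgeR adjusted p = 0.00103). msl-1 and msl-3, protein subunits of the same complex, had log2 fold changes of -2.58 and -1.71, the second with an opposite exon. Without ovary replicate 2, 2 genes of this list were higher in testis and 2 in ovary. The list median moved from -0.04 to 0.56, and that of all genes from 0.83 to 1.7. msl-1 was no longer called without that replicate (log2 -1.47, edgeR adjusted p = 0.0919), nor without any 1 testis library. msl-3 was not called without ovary replicate 3 or without any 1 testis library (edgeR adjusted p from 0.0974 to 0.133). Both calls were also lost with library size alone (edgeR adjusted p = 0.0505 for msl-1 and 0.0708 for msl-3). The same held with the replicate block (edgeR adjusted p = 0.0543 and 0.0594).

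On the ovary side the largest changes were in genes of various known roles. CG42259 (X chromosome, 1046224 to 1047009, plus strand) had 0 in all mutant testes and 257, 99.5 and 246 CPM in mutant ovaries. It was at least 399-fold lower in mutant testis (edgeR adjusted p = 1.85e-06) and at least 371-fold lower in control testis. PIP82, a protein known from photoreceptors, had 0, 0.624 and 0.666 CPM in mutant testes and 92.0, 38.2 and 131 CPM in mutant ovaries, a ratio of ovary to testis of 168 (95% counting interval 56.7 to 818). FarO, a fatty acyl-CoA reductase, had 0.341, 0.312 and 2.66 CPM in mutant testes and 63.2, 35.6 and 57.7 CPM in mutant ovaries (log2 -5.77, edgeR adjusted p = 4.45e-05). Caf1-180, the large subunit of chromatin assembly factor 1, had 0, 0 and 5.33 CPM in mutant testes and 58.9, 113 and 63.4 CPM in mutant ovaries (log2 -5.82, edgeR adjusted p = 0.000305). hiro, with 3 testis counts, had a ratio of ovary to testis of 101 (95% counting interval 33.8 to 495). The other largest changes were CG7607 (log2 -6.55), CG15473 (-6.43), CG8545 (-6.24), nkt (-5.9) and up (-5.8). These 10 were chosen among called genes without an opposite exon, with at least 50 CPM in ovary and with no overlap between the tissues. All 10 were called in all 17 alternatives run for them.

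The classical maternal genes were called on both sides, with a median below that of all genes. Of 24 maternal axis and germ plasm genes 18 were tested, 4 were higher in testis, 6 were higher in ovary and 8 were not called, with a median of -0.8. Over all genes 38.2% were higher in testis and 19.3% in ovary, with a median of 0.83. Without mutant ovary replicate 2 the list counted 6 on each side, with a median of 0.39 against 1.7 over all genes. osk, the posterior determinant, had 8.53, 3.74 and 7.32 CPM in mutant testes and 83.3, 455 and 36.6 CPM in mutant ovaries (log2 -4.92, SE 0.92, edgeR adjusted p = 0.000235). grk, the dorsal signal of the oocyte, had 14.7, 14.7 and 26.6 CPM in mutant testes and 188, 76.8 and 225 CPM in mutant ovaries (log2 -3.16). vls, of the Valois methylosome, and trk, the Torso ligand, had log2 fold changes of -4.64 and -3.83. On the testis side exu, which localises bicoid RNA and has a testis transcript, had 942, 1239 and 565 CPM in mutant testes and 51.7, 54.0 and 50.7 CPM in mutant ovaries (log2 4.11). nanos, the germ cell translational repressor, had 664, 452 and 1070.5 CPM in mutant testes and 134, 56.6 and 107 CPM in mutant ovaries (log2 2.86). All 6 of these genes have an opposite exon, and none of the 6 tested genes of the list without one was called in either direction.

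Ovary translation and RNA transport genes counted 1 higher in testis and 4 higher in ovary of 16 tested, with a median of -1.12. They counted 5 and 4 without mutant ovary replicate 2, and in controls 5 and 5 of 16. With all 6 mutant libraries the ovary share lay near the 19.3% of all genes. The testis share lay below their 38.2%, and the median below their 0.83. larp, a La-related RNA-binding protein without an opposite exon, had 13.3, 25.9 and 37.9 CPM in mutant testes and 342, 422 and 329 CPM in mutant ovaries. Its log2 fold change was -3.86 (SE 0.67, edgeR adjusted p = 9.88e-05) and the groups lay far apart. sqd and Hrb27C, RNA-binding proteins that act together on grk and osk RNA, had log2 fold changes of -3.03 and -2.16, with replicate 2 highest at 798 and 793 CPM, and neither was called without mutant testis replicate 3 (edgeR adjusted p = 0.0786 and 0.137). Hrb27C was also not called with library size alone (edgeR adjusted p = 0.0635). mxt, an eIF4E-binding protein, was higher in testis (log2 2.33), a call lost when scaled by library size alone (edgeR adjusted p = 0.1). The list median was 0.27 without mutant ovary replicate 2, against 1.7 over all genes.

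Of 12 tested egg activation and oocyte maturation genes 3 were higher in testis and 3 in ovary, where all genes had 38.2% and 19.3%. Without mutant ovary replicate 2 the calls were 5 and 4. alphaTub67C, the maternal alpha-tubulin of the meiotic spindle (chromosome 3L, 9681268 to 9683370, plus strand), had 0 in all mutant testes and 28.7, 62.6 and 25.3 CPM in mutant ovaries, at least 125-fold lower in testis (edgeR adjusted p = 1.4e-05). wisp, the poly(A) polymerase of egg activation, had 5.46, 0.936 and 0 CPM in mutant testes and 56.0, 161 and 40.8 CPM in mutant ovaries (log2 -5.23). fs(1)Ya, a nuclear envelope protein of the early embryo, had a log2 fold change of -2.55. sra, the calcineurin regulator of egg activation, with an opposite exon, was higher in testis (log2 2.67).

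Of 10 tested genes of the synaptonemal complex and recombination, processes of female meiosis in this species, 2 were higher in testis and 4 in ovary. Over all genes the shares were 38.2% and 19.3%. Without mutant ovary replicate 2 the list had 4 and 5 calls. narya, a ring finger protein of crossover sites, had 2.05, 1.56 and 0.666 CPM in mutant testes and 12.9, 6.86 and 35.2 CPM in mutant ovaries (log2 -3.53). rec, an MCM-like crossover protein, had a log2 fold change of -3.0. ord, a cohesion protein used in both sexes, had 24.2, 22.8 and 24.0 CPM in mutant testes and 1.44, 0.858 and 0 CPM in mutant ovaries, with a testis to ovary ratio of 29.3 (counting interval at 95%, 9.88 to 144; edgeR adjusted p = 0.000393). rec has an opposite exon.

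Of 24 tested piRNA pathway genes 3 were higher in testis, 8 in ovary and 13 were not called, with a median of -0.47. The shares were 38.2% and 19.3% over all genes, and 24.6% and 32.7% over all genes with an opposite exon. Among the 9 tested members without an opposite exon 2 were higher in testis and 1 in ovary, with a median of 1.11. tej, a Tudor domain protein of the nuage (chromosome 2R, 14300103 to 14302353, minus strand, no opposite exon), had 1.36, 2.81 and 1.33 CPM in mutant testes and 23.0, 27.5 and 32.4 CPM in mutant ovaries (log2 -3.85, SE 0.79, edgeR adjusted p = 0.000441). zuc, the nuclease of piRNA processing, and piwi, the nuclear Argonaute, had log2 fold changes of -4.21 and -1.69, and piwi was not called without testis replicate 1 or 2 (edgeR adjusted p = 0.169 and 0.149). nxf2, of the complex that acts with Piwi in silencing, was higher in testis (log2 3.5). aub, the cytoplasmic Argonaute, overlapped between the tissues and its call (log2 -1.94, edgeR adjusted p = 0.0402) was lost without ovary replicate 2 (log2 -0.6, edgeR adjusted p = 0.436). The aub call was also lost with DESeq2, limma-voom, library size alone, the replicate block and without any 1 testis library. zuc, piwi, nxf2 and aub have an opposite exon. Without mutant ovary replicate 2 the list counted 9 higher in testis and 8 in ovary, close to the 9 and 8 of 23 in controls.

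Few somatic genes of the egg chamber passed the filter. Of 22 chorion, vitelline membrane and yolk genes 8 passed the filter, 2 of them higher in testis and 5 in ovary (3 and 5 without mutant ovary replicate 2). All genes had 38.2% and 19.3%. Cp7Fc, an early chorion protein gene, had 0 in mutant testes and 34.5, 6.86 and 23.9 CPM in mutant ovaries, at least 38.8-fold lower in testis. Cp7Fb had 0, 0.624 and 0 CPM in mutant testes and 24.4, 11.2 and 11.3 CPM in mutant ovaries, a ratio of ovary to testis of 52.1 (95% counting interval 13.7 to 442). Yp1, a yolk protein gene also made by fat body, with an opposite exon, had 0, 1.25 and 0 CPM in mutant testes and 20.1, 220.5 and 8.45 CPM in mutant ovaries, where replicate 2 was highest. The annotated gene dec, with an opposite exon, was higher in testis (log2 3.96).

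Of 7 tested follicle cell genes 2 were higher in each tissue (3 in testis and 2 in ovary without mutant ovary replicate 2). The shares of all genes were 38.2% in testis and 19.3% in ovary. tj, a large Maf factor of somatic gonad cells (chromosome 2L, 19464267 to 19467758, plus strand), had 4.43, 3.43 and 2.66 CPM in mutant testes and 30.2, 93.1 and 42.2 CPM in mutant ovaries (log2 -3.98, SE 0.74, edgeR adjusted p = 0.000195). EcR, the ecdysone receptor, had a log2 fold change of -3.0. shd, the last enzyme of ecdysone synthesis, had 42.3, 29.9 and 40.6 CPM in mutant testes and 1.44, 1.72 and 2.82 CPM in mutant ovaries (log2 4.21). Ilp8, an insulin-like peptide with an opposite exon, was also higher in testis (log2 3.84).

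The cyst and hub genes of the testis soma counted 3 higher in testis and 1 in ovary of 10 tested, near the 38.2% of all genes on the testis side, and 5 and 1 without mutant ovary replicate 2. Krn, an EGF receptor ligand, and so, a homeodomain factor of cyst cells, were higher in testis (log2 3.67 and 2.62), the second not without ovary replicate 1 or testis replicate 1 or 3 (edgeR adjusted p from 0.0513 to 0.0821). That second call was also lost with library size alone and in the joint model of the 12 libraries (edgeR adjusted p = 0.111 and 0.0571). zfh1, a factor of cyst stem cells with an opposite exon, had 6.48, 10.6 and 7.99 CPM in mutant testes and 147, 89.2 and 100 CPM in mutant ovaries (log2 -3.75). Counts of tj and zfh1 thus lay on the ovary side in both mutants and controls.

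Ribosomal protein genes were called almost only on the ovary side, with 3 higher in testis and 40 in ovary of 81 tested and a median of -2.0. Without ovary replicate 2, 22 were higher in testis and 22 in ovary, with a median of 0.27 against 1.7 over all genes. Controls, which hold no mutant library, had 6 higher in testis and 39 in ovary of 81, with a median of -1.22. Upper quartile scaling called 3 higher in testis and 62 in ovary. RpL12, with even ovary values, had 68.9, 58.0 and 73.9 CPM in mutant testes and 815, 833 and 853 CPM in mutant ovaries (log2 -3.67, edgeR adjusted p = 7.05e-05). RpL23A had 20.1, 16.8 and 8.65 CPM in mutant testes and 279, 1827 and 228 CPM in mutant ovaries. The 3 higher in testis were the variant copies RpL10Aa, RpS10a and RpS19b, and RpL10Aa had 206, 173 and 79.9 CPM in mutant testes and 0 in mutant ovaries, at least 209-fold higher. RpL12 and RpL23A have an opposite exon.

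Of 12 tested mitochondrially encoded genes none was higher in testis and 5 were higher in ovary, with a median of -1.19. All genes had 38.2% and 19.3%, with a median of 0.83. In controls 1 was higher in testis and 3 in ovary of 11, with a median of -0.62. mt:CoII, of cytochrome oxidase, had 26.9, 44.0 and 28.6 CPM in mutant testes and 185, 326 and 209.8 CPM in mutant ovaries (log2 -2.88, edgeR adjusted p = 0.000806). mt:ND4L had 59.3, 84.5 and 38.6 CPM in mutant testes and 739, 213 and 749 CPM in mutant ovaries. Small nucleolar and nuclear RNAs, most of which carry no poly(A) tail, held 0.0524% ± 0.00941 of counts in mutant testes and 0.00499% ± 0.00152 in mutant ovaries (SD, n = 3 each; two-sided exact permutation test, p = 0.1). The part of RNA selection in these classes was not tested.

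**Figure D3:**
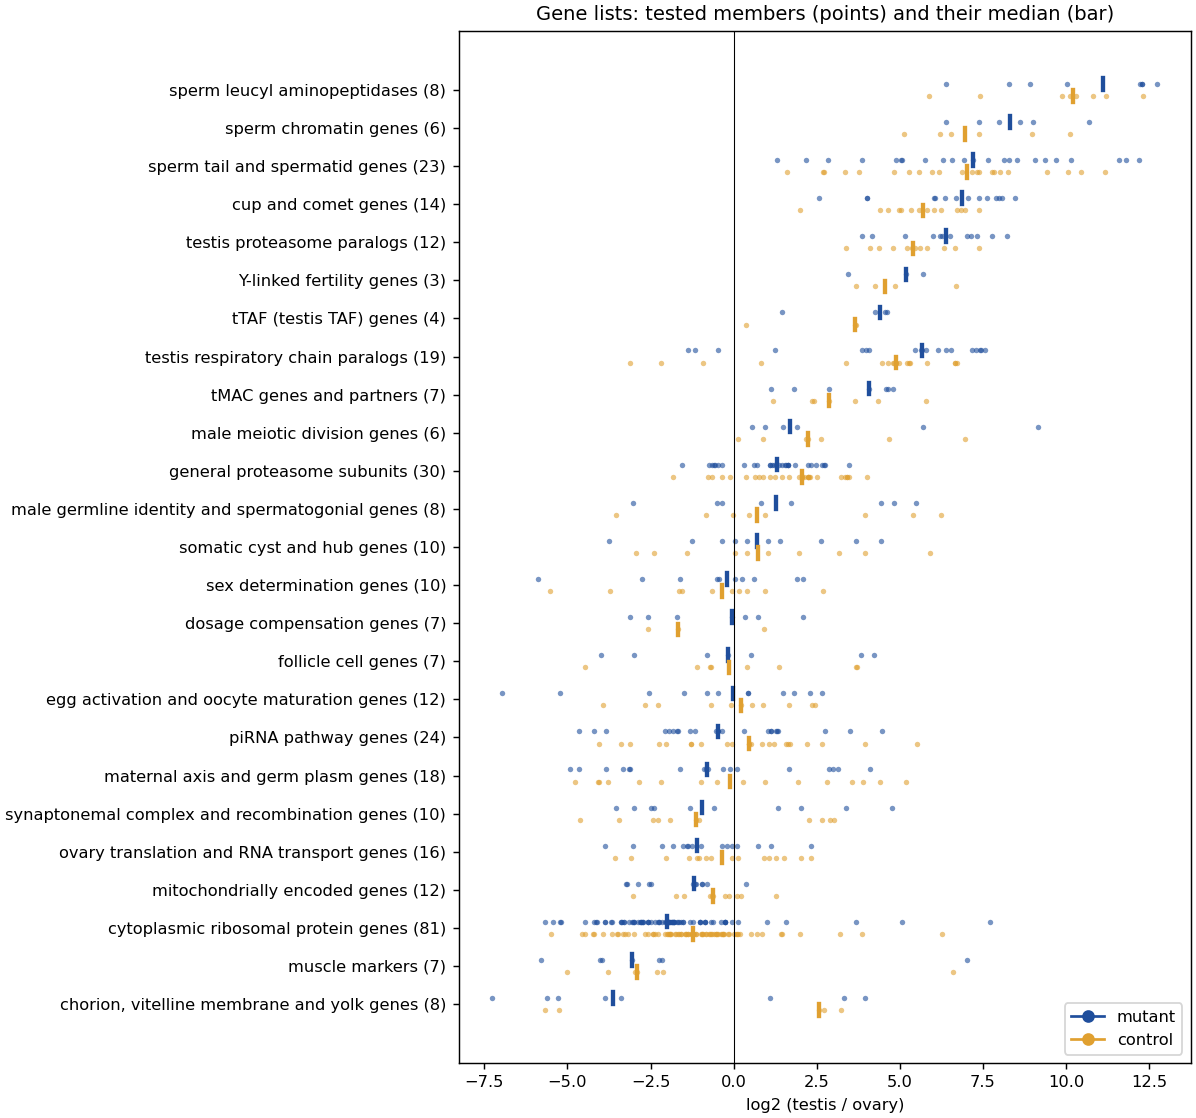
Log2 fold change of testis over ovary for the tested members of each gene list (points; genes with no count in 1 tissue at their lower bound) and their median (bar), mutant above control in each row, with the number tested in mutants in brackets. The sperm tail, sperm chromatin, cup and comet and leucyl aminopeptidase lists have mutant medians from 6.87 to 11.13, and the maternal axis list one of -0.8.

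Genes of other tissues were counted in both gonads. Of 7 tested muscle genes 6 were higher in mutant ovary, among them up, the flight and jump muscle troponin T, with 5.46, 7.48 and 5.33 CPM in mutant testes and 174, 665 and 173 CPM in mutant ovaries. Act79B, an adult muscle actin, was the exception, with 109.8, 70.2 and 162 CPM in mutant testes and 0 in mutant ovaries, at least 129-fold higher in testis. Without ovary replicate 2, 1 muscle gene was higher in testis and 4 in ovary. Both tested fat body genes, apolpp and Lsp2, each with an opposite exon, and 2 of the 3 tested accessory gland genes were higher in testis. Lsp2 was not called without testis replicate 2 (edgeR adjusted p = 0.0502) or under upper quartile scaling (edgeR adjusted p = 0.0756). Acp36DE, a seminal fluid protein, had 97.9, 247 and 85.2 CPM in mutant testes and 1.44, 0.429 and 0 CPM in mutant ovaries and a testis to ovary ratio of 295 (counting interval at 95%, 81.5 to 2438; edgeR adjusted p = 4.8e-06). Of 2 tested hemocyte genes PPO2 was higher in testis (ratio 51.8, 95% counting interval 9.11 to 2067), and of 2 tested neuron genes nSyb was higher in testis and elav, with an opposite exon, in ovary. No gut gene passed the filter. The part of attached tissue in the gonad results was not tested.

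The second question was how far the sex bias of controls holds in mutants. The comparisons share no library, although each sets depleted testis RNA against poly(A) selected ovary RNA. In controls 6381 of 8427 tested genes (75.7%) were called, 4151 higher in testis (49.3%) and 2230 in ovary (26.5%). Among the 8135 genes tested in both genotypes, 4662 were called in the same direction in both, 3090 on the testis and 1572 on the ovary side. They were 96.9% of the 4809 mutant calls and 75.4% of the 6182 control calls. Only 3 genes were called in opposite directions.

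Control calls missing from the mutants mostly kept their sign. Of the 4015 control genes higher in testis, 77.0% were called and 98.8% had the same sign in mutants, and of the 2167 higher in ovary 72.5% were called and 98.9% had the same sign. With genes at 0 set to their bound, the median log2 fold changes were 3.93 in mutants and 3.85 in controls on the testis side and -2.36 in mutants and -2.19 in controls on the ovary side. Across genes these fold changes correlated at Spearman 0.963 and Pearson 0.96, a description over genes that are not independent. The share on the ovary side changed with the genes counted. Among control genes without an opposite exon, 62.2% of those tested were higher in testis and 13.0% in ovary, and 78.5% of control testis calls and 68.3% of control ovary calls were shared.

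Leaving out mutant ovary replicate 2 raised the shared calls to 5630 of 8270 genes tested in both, 89.4% of the calls of each genotype. The share of control calls then reached 92.8% on the testis side and 83.0% on the ovary side, with 6 genes called in opposite directions. The medians of control testis calls, with genes at 0 at their bound, were then 3.9 in mutants and 3.83 in controls, and those of control ovary calls -2.42 in mutants and -2.19 in controls. The fitted medians on the testis side, which depend on the prior count for genes at 0, were 5.33 in mutants and 4.17 in controls. Among genes without an opposite exon the shared part was 95.1% on the testis side, against 78.5% with all libraries. On the ovary side it fell to 62.6%, from 68.3% with all libraries. The part of these control ovary calls with the same sign in mutants was 90.5%, against 98.6% with all libraries. Their medians, with genes at 0 at their bound, were -1.79 in mutants and -2.11 in controls.

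**Figure D4:**
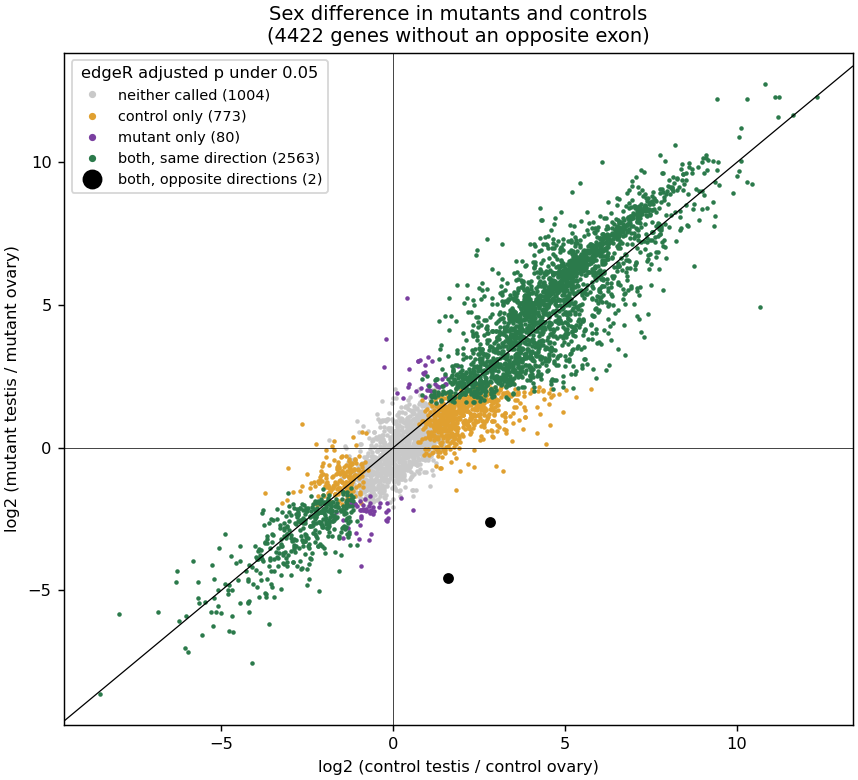
Log2 fold change of testis over ovary in mutants (y axis) against controls (x axis) for the 4422 genes without an opposite exon that were tested in both (points, 1 gene each, with no count in 1 tissue at the lower bound; line, equal values). The 2563 genes called in the same direction run along the line, 773 were called in controls only, 80 in mutants only and 2 in opposite directions.

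A test of the difference between the genotypes called few genes. Of 10321 genes in the interaction of tissue and genotype, 3 (0.0291%) passed an edgeR adjusted p of 0.05, while 550 (5.33%) had an unadjusted p under 0.05. DESeq2 called 13 and limma-voom 6. Leaving out 1 library gave 1 to 6 calls, with 6 without mutant ovary replicate 1 or 2, 5 without mutant ovary replicate 3 and 1 without mutant testis replicate 2 or 3. No member of any gene list was called. A p that misses the threshold does not show equal sex bias, and the spread of the mutant ovary libraries enters every one of these tests.

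stops (chromosome 3R, 31158156 to 31169106, minus strand, opposite exon) lost its ovary bias in mutants. It had 4.09, 7.48 and 5.99 CPM in mutant testes and 5.75, 3.43 and 1.41 CPM in mutant ovaries, where the groups overlapped and the gene lay below the filter. In controls it had 1.5, 1.1 and 3.28 CPM in testes and 86.9, 134 and 119.8 CPM in ovaries. The difference of the fold changes was 6.46 (SE 0.85, edgeR interaction adjusted p = 0.00387), and it was called in all 21 alternatives run.

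CG6414 gained an ovary bias in mutants. It had 3.75, 2.49 and 2.0 CPM in mutant testes and 114, 55.8 and 94.3 CPM in mutant ovaries, against 91.3, 54.5 and 55.0 CPM in control testes and 71.8, 77.5 and 29.6 CPM in control ovaries. The mutant testis values were the low ones. The difference was -5.07 (SE 0.72, edgeR interaction adjusted p = 0.00629), called in 19 of 21 alternatives and not without mutant testis replicate 2 or 3 (adjusted p = 0.078 and 0.0622), and 93.0% of its exon bases lie opposite an antisense RNA.

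The long noncoding RNA CR45179 (chromosome 3L, 16689268 to 16697897, plus strand, no opposite exon) changed sides. lncRNA:CR45179 had 11.3, 13.4 and 21.3 CPM in mutant testes and 103, 50.6 and 118 CPM in mutant ovaries, against 10.5, 15.4 and 16.4 CPM in control testes and 3.78, 0 and 1.41 CPM in control ovaries. It was higher in ovary in mutants (log2 -2.59, edgeR adjusted p = 0.00198) and higher in testis in controls (log2 2.8, edgeR adjusted p = 0.0024). Its interaction of -5.41 (SE 0.91, edgeR adjusted p = 0.0393) was called in 12 of 22 alternatives, with adjusted p from 8.46e-05 to 0.232. The call was lost without any 1 testis library of either genotype, without control ovary replicate 2 or 3, with the replicate block (edgeR adjusted p = 0.0588) and with library size alone (edgeR adjusted p = 0.174).

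Genes next in the interaction did not pass. teq, a serine protease gene, had 111, 103 and 158 CPM in mutant testes and 12.9, 14.6 and 23.9 CPM in mutant ovaries, against 248, 162 and 122 CPM in control testes and 196, 267 and 165 CPM in control ovaries (edgeR interaction adjusted p = 0.161). CG5937 had 23.2, 23.7 and 50.6 CPM in mutant testes, against 0.748, 0 and 0.411 CPM in control testes (edgeR interaction adjusted p = 0.102). dUTPase, which is wholly opposite an antisense RNA, had 6.48, 8.11 and 7.99 CPM in mutant testes and 1.44, 33.5 and 2.82 CPM in mutant ovaries, against 246, 251 and 156 CPM in control testes (edgeR interaction adjusted p = 0.065). asRNA:CR44958 and Or88a, each opposite another feature, had interaction adjusted p of 0.293 and 0.352 (edgeR).

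The other genes called in opposite directions were weak. 18SrRNA-Psi:CR41602, a ribosomal RNA pseudogene with near-identical copies, had 10.9, 6.86 and 4.66 CPM in mutant testes and 2.87, 514 and 8.45 CPM in mutant ovaries. Its mutant call rested on ovary replicate 2 (log2 -4.57 with it, 0.38 without it). Alp4, an alkaline phosphatase with an opposite exon, had log2 fold changes of 1.92 in mutants and -0.98 in controls (edgeR adjusted p = 0.0356 and 0.0413), and its interaction was not called (edgeR adjusted p = 0.577). The mutant call of Alp4 was lost without ovary replicate 3 or testis replicate 1 or 2 (edgeR adjusted p from 0.0723 to 0.224). It was also lost under upper quartile scaling (edgeR adjusted p = 0.2) and with the replicate block (edgeR adjusted p = 0.0678).

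Sex bias differed between chromosomes in the mutants. Among genes without an opposite exon on chromosomes 2 and 3, 51.7% of 4292 tested were higher in testis and 7.92% in ovary, with a median log2 fold change of 2.09. On the X chromosome 31.6% of 903 were higher in testis and 18.2% in ovary, with a median of 0.33. The X median was 0.67 in controls, 1.57 in mutants without ovary replicate 2 (2.66 on chromosomes 2 and 3) and -0.36 under upper quartile scaling. On chromosome 4, 6 of 37 tested genes were higher in testis and 6 in ovary (16.2% each), with a median of -0.39. All 20 tested Y-linked features had 0 counts in mutant ovaries and passed the filter through testis alone, so their testis direction was fixed in advance. These shares describe the chromosomes and no test of the difference was made.

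**Figure D5:**
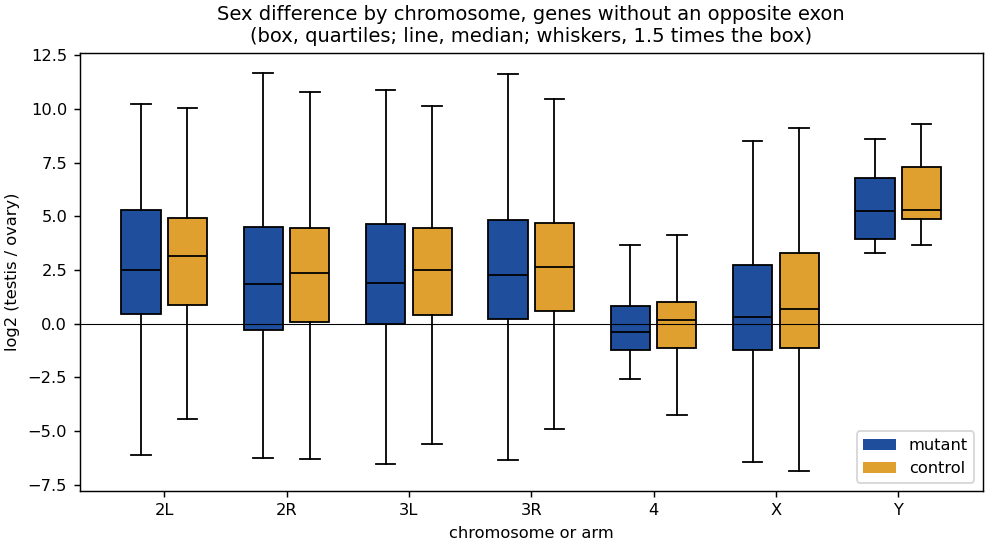
Log2 fold change of testis over ovary by chromosome or arm for genes without an opposite exon (box, quartiles; line, median; whiskers, up to 1.5 times the box), mutant left of control, with genes at 0 counts in 1 tissue at their lower bound. The mutant medians are 0.33 on X, -0.39 on 4 and 1.84 to 2.52 on the arms of 2 and 3, while the Y median is 5.24.

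Share of counts showed the same order for X. X-linked genes held 8.89% ± 0.233 of counts in mutant testes and 12.9% ± 1.73 in mutant ovaries (SD, n = 3 each; two-sided exact permutation test, p = 0.1), and 10.6% ± 0.306 in control testes and 12.5% ± 0.503 in control ovaries. The fourth chromosome held 0.552% ± 0.0716 in mutant testes and 1.46% ± 0.0379 in mutant ovaries (exact two-sided permutation p = 0.1). Y-linked features held 0.159% ± 0.0457 in mutant testes and 0.391% ± 0.0576 in control testes. They had no count in any ovary library of either genotype.

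Feature classes differed in direction. Of 389 tested antisense RNAs 60 were higher in mutant testis and 236 in mutant ovary, with a median of -2.33, and in controls 64 of 382 were higher in testis and 270 in ovary. Of 233 other long noncoding RNAs 127 were higher in mutant testis and 59 in ovary, with a median of 3.24. Protein-coding genes numbered 3215 higher in testis and 1424 in ovary of 8294 tested. Genes with an opposite exon had 923 higher in testis and 1224 in ovary of 3745, the reverse of the order among genes without one.

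An antisense RNA was paired with a gene where that gene lies opposite 50% or more of its exon sequence. This gave 310 pairs, where the annotation used has 465 antisense RNA features. Among pairs with at least 10 counts, the antisense member was denser per kilobase in 215 of 303 (71.0%) in mutant testes. In mutant ovaries it was denser in 233 of 261 (89.3%). The median log2 ratio of antisense to gene density was 1.89 in mutant testes and 6.14 in mutant ovaries. The part of the strand setting in these densities and in the antisense calls was not tested. Of 248 pairs tested on both sides, 32 had both members higher in testis and 27 had both higher in ovary. In 55 pairs the gene was higher in testis and the antisense RNA in ovary, and in 2 pairs the antisense RNA was higher in testis and the gene in ovary.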

How the data were processed

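RNA of testes and ovaries from Tdrd5l mutants and controls, 3 libraries per group, was analysed from the raw gene counts deposited by the authors, in 1 table per library. Per the submitters' processing notes the tools were FastQC, TopHat2 2.1.1, HTSeq 0.9.1 and DESeq, with the BDGP6 genome. The sources used here do not state the strand setting. The TruSeq RNA Library Prep kit v2 of the labels does not mark strand. HTSeq summary lines were left out, and genes held 2.82% to 4.18% of all records in mutant testes and 1.82% to 3.07% in mutant ovaries.

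Symbols, positions and opposite exons were read from Ensembl's BDGP6.54 annotation. In R 4.3.3, edgeR 4.0.16 compared testis with ovary separately in each genotype and tested the interaction in all 12 libraries. Its filter was filterByExpr at a minimum count of 10, its scaling TMM and its test the robust quasi-likelihood F test. Tests were two-sided, p-values were adjusted by Benjamini-Hochberg over all tested genes, and the threshold was 0.05. CPM were TMM-scaled over the 12 libraries. For a group at 0 counts, 3 counts stood in as a floor. Ratios of groups with 1 to 3 counts carry exact 95% intervals, and floors and intervals cover counting error only. Shares of counts were compared with exact permutation tests. P-values measure the spread between these libraries. Scripts were tested on simulated data.

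Gene lists are described by counts and medians. Named genes are Tdrd5l and the 10 largest changes in each direction among called genes with a symbol, no opposite exon, no overlap and at least 50 CPM in the higher tissue. Up to 4 called members of each list with the smallest adjusted p (or 2 tested members where none was called) were added, with the 8 smallest interaction p-values at 5 CPM or more and the genes called in opposite directions. Sxl, Phf7, sa, twe, RpS10a and RpS19b fall outside this rule and were chosen after their values were seen. A gene that the rule selects is not reported here. Members, lists and rule were chosen with earlier results of these data known.

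As alternatives, scaling used DESeq2 size factors, the upper quartile or the library size. Filtering was dropped or set to 1 CPM in 3 libraries. DESeq2 1.42.0 and limma-voom (limma 3.58.1) replaced edgeR. Other fits had a block for replicate number, a joint model of the 12 libraries, a 2-fold threshold or only genes without an opposite exon, or left out each library in turn. Pairs of libraries were left out after seeing the data.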

Additional observations from a re-analysis of the deposited data

Results flagged for a closer look

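Sex bias differed between the genotypes, by the edgeR test of the difference itself over 10321 genes, in 3 genes. The interaction of tissue and genotype was 6.46 (log2) for stops, whose mutant groups overlapped and which was higher in ovary in controls (log2 -5.7). It was -5.07 for CG6414, with 3.75, 2.49 and 2.0 CPM in mutant testes and 91.3, 54.5 and 55.0 CPM in control testes. It was -5.41 for lncRNA:CR45179, with 103, 50.6 and 118 CPM in mutant ovaries and 3.78, 0 and 1.41 CPM in control ovaries. Mutant ovary replicate 2 was the lowest mutant ovary library for CG6414 and lncRNA:CR45179 and the middle one for stops. stops and CG6414 have an opposite exon. In the alternatives run, stops was called in 21 of 21, CG6414 in 19 of 21 (not without mutant testis replicate 2 or 3) and lncRNA:CR45179 in 12 of 22.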

How the results depend on the processing

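The count of mutant sex calls stayed within 1.5 times of 5282 under 17 of 18 alternatives, the exception being a fit of genes without an opposite exon alone (3307 calls, with fewer genes entered). That fit also gave 3394 calls in controls, 2660 shared calls and 1 interaction call. Leaving out 1 library gave 4603 to 7345 mutant calls, 5869 to 7147 control calls, 3964 to 5630 shared calls and 1 to 6 interaction calls. The interaction count of 3 became 6 without mutant ovary replicate 1 or 2, 5 without mutant ovary replicate 3 and 1 without mutant testis replicate 2 or 3. It was 5 with DESeq2 size factors, 13 with DESeq2, 6 with limma-voom, 6 without a filter and 5 with upper quartile scaling, and the cause was not tested. Chosen after seeing the data, leaving out mutant ovary replicate 2 and control ovary replicate 1 gave 9 interaction calls and 6189 shared calls, and leaving out mutant ovary replicate 2 and mutant testis replicate 3 gave 7680 mutant calls.

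With the replicate number as a block there were 5082 mutant calls, 5904 control calls, 4525 shared calls and 2 interaction calls. Same-numbered testis and ovary samples share only a number: their deviations correlated at -0.0708, 0.243 and 0.172 in mutants and at -0.0968, -0.0242 and -0.0343 in controls, and not every sample correlated best with its own number.

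Of 130 named genes tested, 113 kept their direction and side of the threshold in every alternative, 15 lost a call in 54 of 2296 settings and asRNA:CR44958 gained one in 5. dUTPase, not called at -0.91, changed sign with limma-voom (0.37), the replicate block (0.17) and without mutant ovary replicate 2 and mutant testis replicate 3 (1.81), and lay between -1.38 and 1.75 with 1 library left out, highest without mutant ovary replicate 2. 18SrRNA-Psi:CR41602, at -4.57, was 0.69 without that pair and between -5.13 and 0.38 with 1 library left out, again highest without mutant ovary replicate 2. Depth was lowest in the ovary: mutant ovaries other than replicate 2 held 52133 and 55241 counts in genes without an opposite exon, and a gene at 0 there gives only a lower bound.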
